A study of Rattus norvegicus with 132 samples.

Results

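The libraries described here are the 6 colon libraries of irradiated rats given compound Kushen powder, taken at day 4, set against the 6 colon libraries of non-irradiated rats. They were chosen by sample title and are 12 of the 132 libraries of the series. All are bulk RNA libraries of colon epithelium from Sprague Dawley rats, an outbred laboratory stock. The powder group received abdominal irradiation in 5 fractions of 4 Gy and oral compound Kushen powder, a herbal preparation that the sample descriptions call a pill. The non-irradiated group received neither irradiation nor any treatment, so the vehicle is absent from it as well. Day 0 to day 4 is given for the irradiation and day 4 for the tissue, so the time since the last fraction is not fixed by the labels, and age, sex and powder dose are not stated. Beside the main contrast, 6 colon libraries of irradiated rats given water as oral vehicle and 6 of irradiated untreated rats, both at day 4, serve as references. Because irradiation and powder come together in the powder group, their parts in a difference from non-irradiated colon cannot be told apart in this contrast, and only the comparison with vehicle bears on the powder itself. The labels speak of biological replicates and number them 1 to 6 without naming rats. The p-values therefore measure the spread between libraries, which was estimated over 42 colon libraries of 7 groups, day 7 included. The data are RNA counts, with no histology or other measure of tissue damage, and what is described is therefore the expression difference between powder-treated irradiated colon and normal colon.

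The colon epithelium is renewed from stem cells at the base of its crypts, whose daughters divide, stop dividing and mature into absorbing colonocytes, mucus-making goblet cells and a few hormone-making and tuft cells. Ionizing radiation breaks DNA, which stabilizes the transcription factor p53, and p53 target genes then halt the cell cycle or start cell death in the dividing crypt cells. Surviving crypts regenerate, and a barrier with gaps lets bacteria reach the tissue, which calls on cytokines, chemokines and antimicrobial proteins.

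Total counts lay between 18.7 and 19.5 M per library in the 24 libraries of the 4 groups, so that for all but the rarest genes the spread between libraries, not counting error, limits the precision. Mitochondrially encoded genes took 12.3% ± 1.25 (SD, n = 6) of the counts in non-irradiated colon and 9.58% ± 1.99 in powder colon, against 8.40% ± 1.88 with vehicle and 9.16% ± 1.03 without treatment. Of 8 epithelial and colon markers all were abundant in each of the 12 libraries, with the lowest value 124 CPM (counts scaled to library size). Among these markers 7 did not pass the test, and Cdx2, the intestinal homeobox factor, was 1.50-fold lower in powder colon. Ptprc, the pan-leukocyte gene CD45, was at 4.78 to 23.3 CPM in non-irradiated and 1.43 to 4.92 CPM in powder libraries, so leukocyte RNA was present at a low level and lower in powder colon (log2 -1.90 ± 0.41 SE, adjusted p = 0.00066). In bulk RNA, fewer cells of a type and less RNA per cell cannot be told apart. The first digit of the library names splits each group into series 1 (replicates 1 to 3) and series 2 (replicates 4 to 6); the labels do not say what the digit means.

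On a principal component plot of the 500 most variable genes the powder libraries lay between normal colon and the other irradiated groups. The first component held 63.1% of the variance, and along it the non-irradiated libraries lay between -51.8 and -41.6 and the powder libraries between -17.8 and 15.4. Vehicle libraries reached from -4.43 to 57.5 and untreated ones from -1.93 to 55.3, so the powder libraries had no overlap with normal colon and did overlap with the other irradiated libraries. The second component, with 12.2%, set apart powder replicate 5 at -29.9 together with 3 libraries of the other irradiated groups at -28.8 to -27.6, while the other powder libraries were at 5.33 to 16.2. The 3 powder libraries of series 2, at -4.73 to 15.4 on the first component, all lay further from normal colon than the 3 of series 1, at -17.8 to -8.59.

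**Figure D1:**
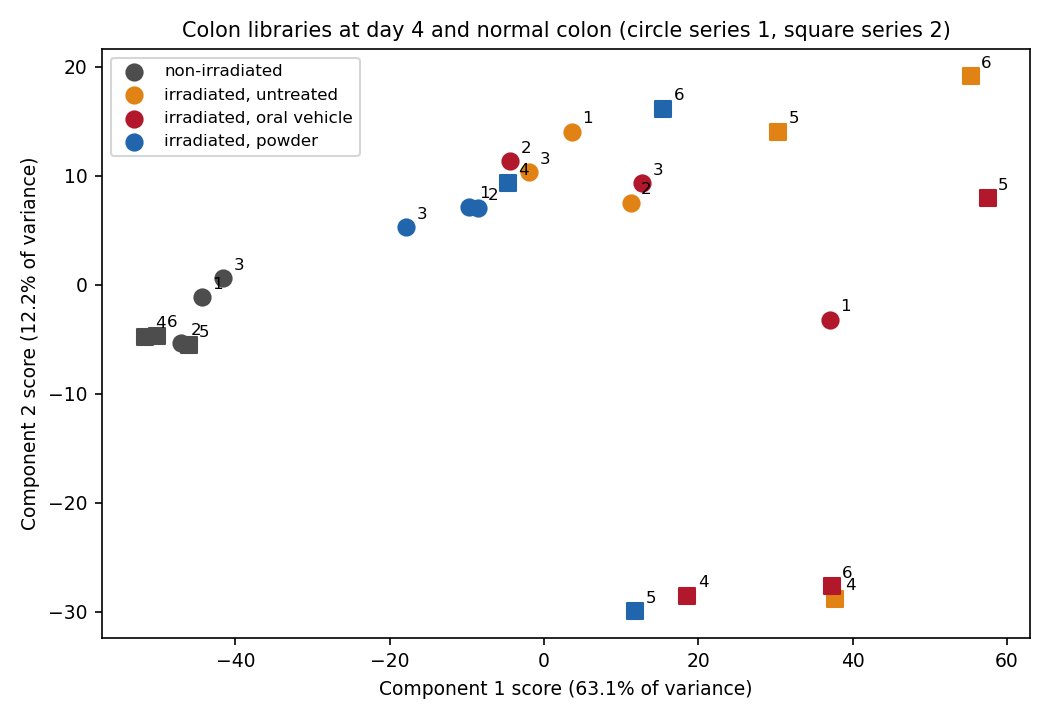
Principal components of log2 CPM for the 500 most variable genes in 24 colon libraries, 6 per group; each point is 1 library with its replicate number, circles for library series 1 and squares for series 2. Powder libraries lie at -17.8 to 15.4 on the first component, apart from the non-irradiated libraries at -51.8 to -41.6, and powder replicate 5 lies low on the second.

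In powder colon 4106 of 13306 genes tested differed from normal colon (30.9%, adjusted p under 0.05 by edgeR's quasi-likelihood test with Benjamini-Hochberg adjustment, as for all adjusted p below). Of these 2297 rose (17.3%) and 1809 fell (13.6%), and 1399 changed at least 2-fold (10.5%), 939 up (7.06%) and 460 down (3.46%). The same normal libraries set against vehicle colon gave 6587 called genes (49.5%, 26% higher and 23.6% lower), and set against untreated irradiated colon 6242 (46.9%, 24.6% higher and 22.3% lower). These counts share their controls. With only the compared libraries in each fit they were 5226 with powder, 6225 with vehicle and 6030 in untreated colon. The gap between powder and the other groups was therefore smaller in that setting. The median log2 difference over all genes was 0.01 for powder, which is the background for the list medians below. In 1414 genes (10.6%) all 6 powder libraries lay above all 6 normal ones and in 1171 (8.8%) all lay below. The shares called higher and lower, and those without overlap, are likewise the background for the list counts below. The lists were chosen with earlier results of these data known, so a count above these shares is a description and not an independent test. For list counts against vehicle the background is 4.89% higher and 6.9% lower. List counts cover only members that passed the filter on low counts, which was applied by group. A member could pass through a group where it was high, and if nearly absent from normal colon it could rise but not fall.

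The 6 genes described first, all among the highest by the naming rule, were at no more than 2.28 CPM in each normal library. Pinlyp, a phospholipase inhibitor of the Ly6 family, had 2 counts in the 6 normal libraries and 1567 in the 6 powder libraries, a ratio of 709 (95% counting interval 196 to 5860). Atg9b, a lipid scramblase of autophagy, also had 2 counts in normal colon and stood at 5.68, 11.3 and 19.8 CPM (lowest, median and highest library) with powder, a ratio of 601 (166 to 4970). Jam3, a junctional adhesion molecule, was at 0.113, 0.251 and 0.541 CPM in normal and 10.2, 18.6 and 35.5 CPM in powder colon, 71.4-fold higher (log2 6.16 ± 0.70 SE, adjusted p = 5.12e-08). Etv4, a transcription factor downstream of growth factor signalling, was at 1.14, 1.86 and 2.28 against 27.6, 47.2 and 68.2 CPM (log2 4.71 ± 0.45 SE, adjusted p = 1.59e-09). For each of these 4 genes all powder libraries were above all normal ones. Mmp7, an epithelial matrix metalloproteinase, rose 133-fold and also held apart, at 0.0543 to 0.456 against 4.52 to 73.0 CPM. Atp12a, the non-gastric proton pump, is called at 316-fold higher, yet it reached 408 CPM in powder replicate 5, 18.8 in replicate 6 and at most 1.27 in the other 4, where normal colon had up to 0.181. Its call ended without powder replicate 5 (adjusted p = 0.201).

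The 12 lowest genes by the naming rule are of varied kinds. Cacna1h, a T-type calcium channel, was at 92.2, 97.2 and 147 CPM in normal and 8.00, 11.7 and 16.3 CPM in powder colon, 8.66-fold lower (log2 -3.11 ± 0.26 SE, adjusted p = 1.56e-10), with no overlap. Fabp1, the liver-type fatty acid binding protein, fell 8.07-fold, from 1834, 2019.9 and 3343 to 75.1, 435 and 636 CPM, again with no overlap, and its lowest powder value was that of replicate 5. Gkn3, a gastrokine, fell 11.5-fold, and Slc27a2, a fatty acid transporter and very-long-chain acyl-CoA synthetase, 6.53-fold. Acaa1b, a peroxisomal thiolase, fell 6.45-fold, and Flrt1, a membrane protein of cell adhesion, 7.29-fold; in all 4 the groups did not overlap. Colq, Tcerg1l and the cytochrome P450 genes Cyp2w1 and Cyp2b1 complete the lowest 12 by the naming rule, with log2 differences of -2.86, -2.71, -2.61 and -2.61, together with Celf3 and the goblet cell gene Clca1, which are described below.

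Known p53 target genes rose in powder colon. Of 18 measured genes of p53-driven arrest and feedback 11 rose and 0 fell (median log2 0.72), and of 15 genes of p53-driven death 11 rose and 1 fell (median 0.69). Ccng1, a cyclin induced by p53, was at 59.1, 64.2 and 71.2 CPM in normal and 416, 473 and 502 CPM in powder colon, 7.17-fold higher (log2 2.84 ± 0.20 SE, adjusted p = 3.46e-12). Phlda3, which restrains Akt, was at 0.301, 1.16 and 2.38 against 70.5, 97.6 and 116 CPM, 81.9-fold higher (log2 6.36 ± 0.61 SE, adjusted p = 1.48e-09). Both genes were separated by a wide gap, and the powder libraries differed little among themselves. Cdkn1a, which codes for p21 and stops the cell cycle, rose 2.25-fold from 134, 152 and 192 to 316, 336 and 430.2 CPM, and Mdm2, the ubiquitin ligase that degrades p53, 2.40-fold from 48.3, 56.4 and 62.0 to 128, 133 and 151 CPM. Plk2, a kinase of the stress response, rose 22.0-fold, Ckap2, a spindle protein, 6.82-fold, and Rps27l, a ribosomal protein paralogue, 2.58-fold. Btg2, an antiproliferative gene, stood at log2 0.44 ± 0.18 (SE, adjusted p = 0.0633) and Ei24 at 0.04 ± 0.06, both short of the test.

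On the death side Eda2r, a receptor of the TNF family, was at 0, 0.0554 and 0.114 CPM in normal and 7.25, 11.0 and 21.6 CPM in powder colon (log2 7.74 ± 0.70 SE, adjusted p = 5.76e-10). Ano3, a membrane protein of the anoctamin family for which no part in death is claimed here, had 3 counts in normal colon and 604 with powder, a ratio of 182 (62.1 to 886). Aen, a nuclease that p53 induces, rose 5.43-fold from 6.07, 9.13 and 11.3 to 37.5, 47.0 and 54.7 CPM, Bbc3, the BH3-only protein PUMA, 2.30-fold, and the death receptor Fas 1.75-fold. All powder libraries were above all normal ones for these 5 genes. Of 21 genes of damage signalling and repair 11 rose and 0 fell (median 0.48), among them Xrcc5, which holds broken ends (1.57-fold), the kinases Atr (2.28-fold) and Chek1 (2.33-fold) and Fancd2 (1.93-fold), while Lig4 and Pold4 were not called (log2 -0.15 and -0.02).

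The most induced p53 genes were not called against vehicle. Ccng1 differed from vehicle by log2 0.06 ± 0.19 (95% interval -0.32 to 0.45), Phlda3 by -0.20 ± 0.45 (-1.12 to 0.72), Eda2r by -0.33 ± 0.42 (-1.18 to 0.51) and Cdkn1a by -0.32 ± 0.18 (-0.68 to 0.04), and 0 of these passed the test. The powder libraries enter both contrasts, and the list medians were higher with vehicle than with powder, at 1.18 for arrest and 1.11 for death. Of the arrest genes 3 and of the death genes 3 were lower than with vehicle and 0 higher, where 11.8% of all genes tested differed between powder and vehicle (6.9% lower). The 3 arrest genes became 1 without oral vehicle replicate 5, powder replicate 2 or powder replicate 4, and the 3 death genes 5 without oral vehicle replicate 2. Bid, a BH3-only protein that joins death receptors to mitochondria, was one of them (log2 -0.81 ± 0.20 SE, adjusted p = 0.0105), and it was near its normal level with powder (log2 -0.06 ± 0.20).

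A pair of promoters of the p53 group are shown because both genes were higher in all powder than in all normal libraries and hold a match to the p53 half-site, near the start in Aen and at the far end of the window in Ccng1. The sequences are the 250 bases before the RefSeq start (build GRCr8), 5′ to 3′ in the direction of the gene, with matches to the p53 half-site in capitals (both strands searched; a match of this palindromic motif counts on both strands). Of 17 arrest genes with a RefSeq promoter 6 hold such a match and of 11 death genes 1, against 6.56% of all 27457 promoters of this length. A match is a description of the letters and does not show binding.
Ccng1 promoter, chr10:25684877-25685126, minus strand: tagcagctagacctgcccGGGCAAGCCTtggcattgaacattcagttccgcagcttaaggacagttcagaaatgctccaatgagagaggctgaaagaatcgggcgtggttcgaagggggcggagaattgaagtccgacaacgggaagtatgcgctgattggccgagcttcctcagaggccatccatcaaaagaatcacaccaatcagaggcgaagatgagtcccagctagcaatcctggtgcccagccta
Aen promoter, chr1:142224283-142224532, plus strand: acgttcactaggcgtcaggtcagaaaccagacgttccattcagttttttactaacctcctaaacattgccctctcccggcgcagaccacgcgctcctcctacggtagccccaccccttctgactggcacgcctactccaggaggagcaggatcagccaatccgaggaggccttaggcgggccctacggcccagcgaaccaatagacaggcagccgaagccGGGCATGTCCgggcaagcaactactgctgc

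**Figure D2:**
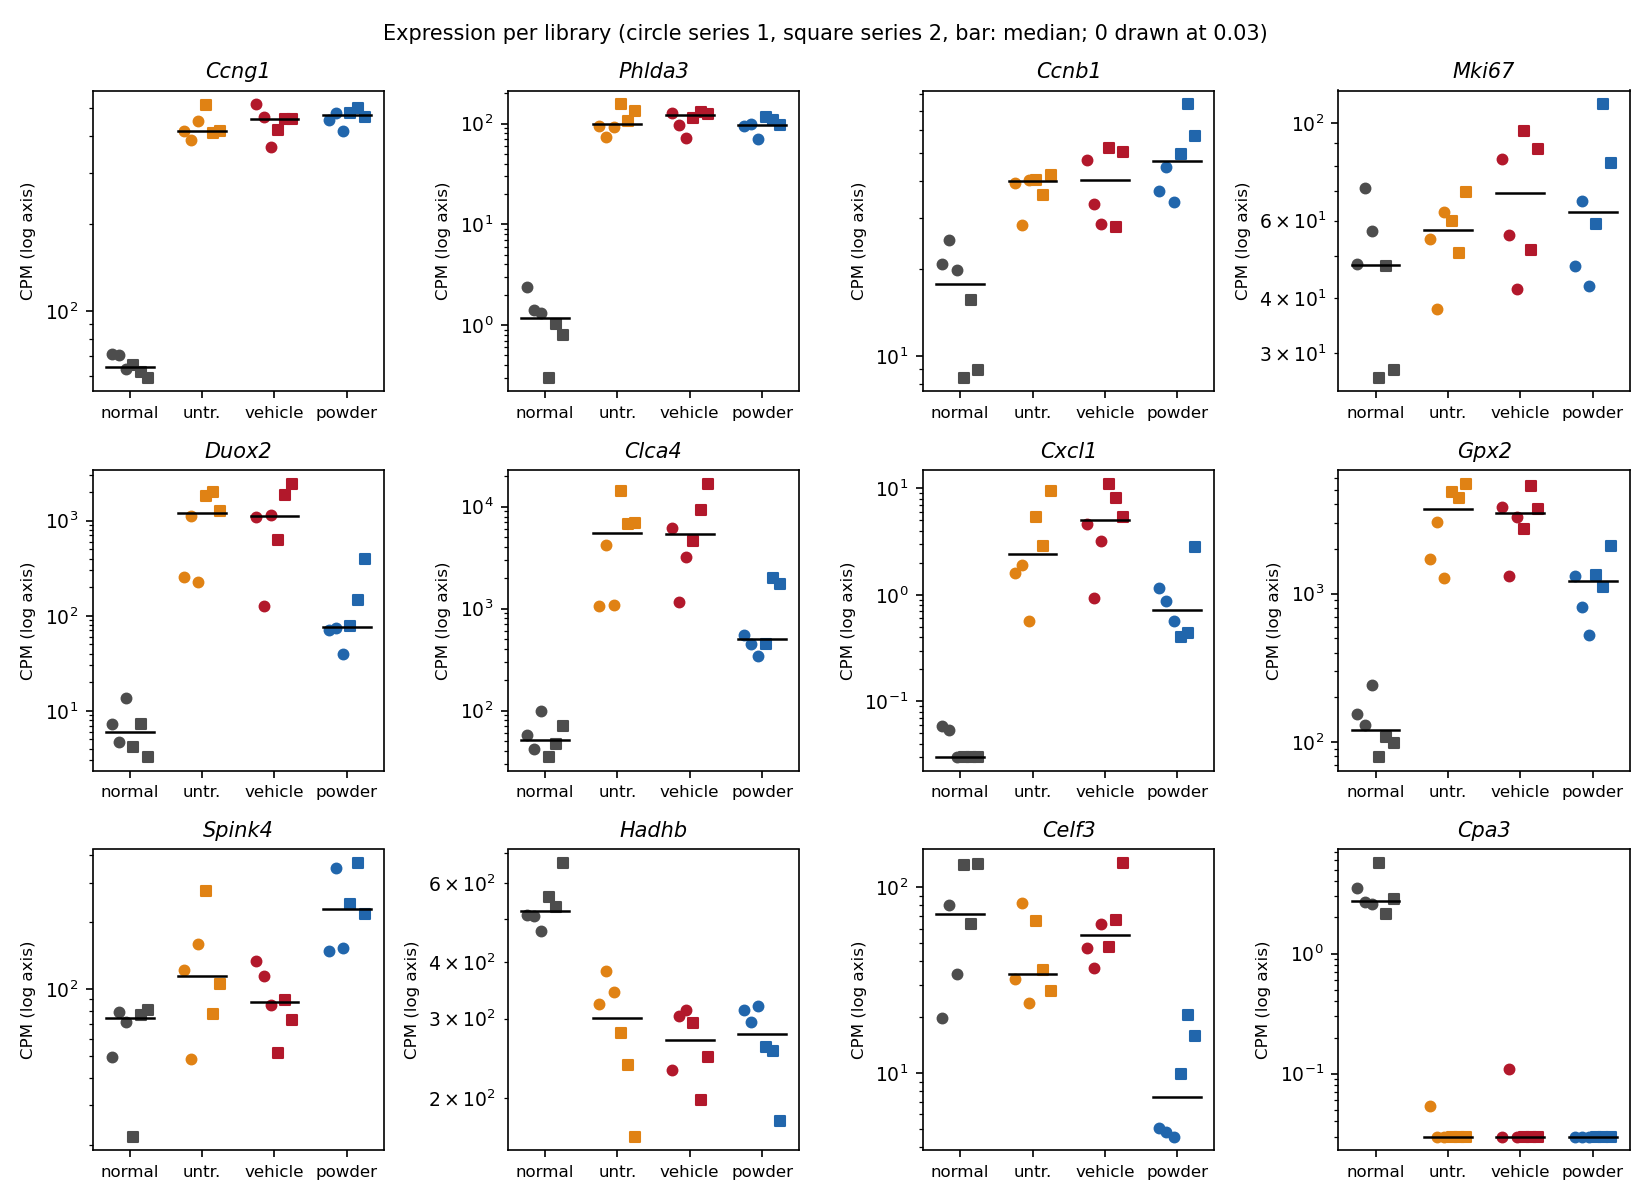
CPM of 12 genes in single libraries (logarithmic axis, 0 drawn at 0.03 CPM), 6 libraries per group; points are libraries, circles for series 1 and squares for series 2, and bars mark group medians. The powder medians of Duox2, Clca4, Cxcl1 and Gpx2 lie between those of normal and vehicle colon, powder libraries overlap vehicle ones in Ccng1 and Phlda3, and the 6 powder libraries of Celf3 lie below all 12 of the other irradiated groups.

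Most measured genes of cell division rose with powder. Of 24 mitosis genes 23 rose and 0 fell (median log2 1.05), and of 24 genes of DNA replication and nucleotide supply 21 rose and 0 fell (median 1.06). Ccnb1, the mitotic cyclin, was at 8.42, 17.7 and 25.1 CPM in normal and 33.8, 47.1 and 73.9 CPM in powder colon, 2.99-fold higher (log2 1.58 ± 0.23 SE, adjusted p = 3.46e-06), and its partner Cdk1 at 10.9, 17.2 and 24.0 against 26.0, 44.0 and 54.0 CPM (log2 1.29 ± 0.21 SE, adjusted p = 2.38e-05). Rrm2, the regulated subunit of ribonucleotide reductase, was at 9.02, 15.3 and 17.6 against 39.1, 65.5 and 126 CPM, 4.91-fold higher. In all 3 the groups did not overlap. Ccne1, the cyclin of entry into S phase, rose 3.96-fold, the helicase subunit Mcm5 2.92-fold, the mitotic kinase Aurka 2.44-fold, the spindle midzone protein Prc1 2.29-fold and Hmmr, a spindle protein, 2.90-fold. Mki67, which codes for the Ki-67 antigen, was at 26.4, 47.6 and 71.4 against 42.5, 62.7 and 111 CPM and was the mitosis gene not called (log2 0.53 ± 0.24 SE, adjusted p = 0.0851).

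Within series 1 the median of the mitosis list was 0.35 with 1 of 24 members called, and within series 2 it was 1.85 with 23 called. For the replication list the medians were 0.53 and 1.69, with 4 and 23 members called higher. Over all genes 553 (4.15%) were called higher in series 1 alone and 2009 (15%) in series 2 alone, with 3 libraries a group, so more genes passed the test in series 2 in general. Normal colon of series 2 was lower in Mki67 (26.4, 47.3 and 27.4 CPM) than that of series 1 (47.9, 71.4 and 56.8), and powder colon of series 2 tended higher with overlap (59.1, 111 and 81.0 against 47.2, 66.4 and 42.5). Ccnb1 differed by log2 0.80 in series 1 and 2.47 in series 2, and Mki67 by -0.19 and 1.33. A test of the difference between series, added after the data were seen, called 13 of 13306 genes (0.0977%), among them Prim1, a DNA primase subunit, which fell in series 1 and rose in series 2 (-0.67 and 0.93; log2 difference 1.57, adjusted p = 0.0307); 23 of the 24 mitosis genes had an unadjusted p under 0.05 in it, as had 2155 of all 13306 genes, and 0 of the 24 passed the adjustment. For the p53 arrest genes the medians were 0.96 in library series 1 and 0.68 in series 2. What sets the series apart was not tested.

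Against vehicle, of the mitosis members 0 were higher and 0 lower than with vehicle, and of the replication members 0 and 0. Ccnb1 differed from vehicle by log2 0.30 ± 0.22 (95% interval -0.15 to 0.75) and Rrm2 by -0.41 ± 0.26 (-0.93 to 0.12). A pair of promoters of the mitosis list are shown for the CCAAT box, a motif of promoters of dividing cells, which 17 of the 21 mitosis genes with a RefSeq promoter hold in these 250 bases, as do 11 of 19 replication genes and 34.3% of all promoters. The letters CCAAT were searched on both strands, and capitals mark the matches, which read ATTGG where the match is on the other strand.
Ccnb1 promoter, chr2:33655226-33655475, minus strand: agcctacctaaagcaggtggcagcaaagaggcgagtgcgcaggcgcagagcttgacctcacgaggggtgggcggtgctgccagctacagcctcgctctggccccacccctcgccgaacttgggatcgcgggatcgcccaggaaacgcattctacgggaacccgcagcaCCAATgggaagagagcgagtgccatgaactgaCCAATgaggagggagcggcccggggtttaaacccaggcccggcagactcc
Cdk1 promoter, chr20:19265043-19265292, plus strand: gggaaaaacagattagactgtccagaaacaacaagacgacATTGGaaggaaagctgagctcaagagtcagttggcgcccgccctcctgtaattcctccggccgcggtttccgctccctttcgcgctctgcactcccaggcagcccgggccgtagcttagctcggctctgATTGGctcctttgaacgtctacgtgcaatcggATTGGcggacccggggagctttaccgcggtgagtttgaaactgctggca

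Wnt target and crypt base genes stood above normal. Of 17 measured members 10 rose and 0 fell (median 0.89). Nkd1, a feedback inhibitor of Wnt signalling, was at 0.0601, 0.632 and 0.706 CPM in normal and 4.61, 8.79 and 22.9 CPM in powder colon (log2 4.22 ± 0.47 SE, adjusted p = 3.31e-08), and Axin2, another feedback inhibitor, at 7.09, 11.4 and 16.9 against 32.7, 39.6 and 82.1 CPM (log2 1.94 ± 0.26 SE, adjusted p = 7.35e-07). Neither gene overlapped between the groups. Ascl2, a transcription factor of crypt stem cells, rose 8.49-fold, Sox9, a factor of the crypt base, 3.31-fold, and Rnf43, a ligase that removes Wnt receptors, 2.53-fold. Lgr5, the stem cell receptor, rose 2.90-fold at a low level, 0.174 to 0.740 against 0.456 to 2.01 CPM (adjusted p = 0.0241), and Olfm4, a crypt base glycoprotein, was not called (log2 0.78 ± 0.65). The Lgr5 call ended without any 1 of 3 libraries, up to adjusted p = 0.0924 without powder replicate 5. Of this list 0 members were higher and 0 lower than with vehicle.

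Genes of regenerating epithelium rose with powder, several of them less than with vehicle. Of 22 measured members 12 rose and 1 fell (median 1.70), against 20 and 1 with vehicle (median 2.39), and 7 members were lower with powder than with vehicle and 0 higher. The 7 became 1 without oral vehicle replicate 5, 3 without powder replicate 4 and 4 without oral vehicle replicate 6, powder replicate 2 or powder replicate 3. Anxa1, an annexin with anti-inflammatory action, was at 0.815, 1.32 and 2.84 CPM in normal, 16.2, 24.2 and 80.0 CPM in powder and 40.9, 112 and 857 CPM in vehicle colon. It rose 21.0-fold with powder (log2 4.39 ± 0.74 SE, adjusted p = 2.78e-05) and was 5.94-fold lower than with vehicle (log2 -2.57 ± 0.63 SE, adjusted p = 0.00907). Areg and Ereg, ligands of the epidermal growth factor receptor, rose 3.44-fold and 2.73-fold, and Ereg was lower than with vehicle (log2 -0.93 ± 0.29 SE, adjusted p = 0.0326) while Areg was not called (log2 -0.37 ± 0.26). Emp1, an epithelial membrane protein, went the other way and fell 1.74-fold, with no overlap (4177 to 5906 against 2084 to 3621 CPM). Cldn4, a claudin, was not called with powder (log2 0.46 ± 0.31) and was 2.08-fold lower than with vehicle (adjusted p = 0.0245). Calls against vehicle that ended with 1 library left out were those of Anxa1 without oral vehicle replicate 5 (adjusted p = 0.0916), Ereg without oral vehicle replicate 5 (adjusted p = 0.102) and Cldn4 without oral vehicle replicate 5 (adjusted p = 0.102), each given at its highest.

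Part of the antimicrobial and oxidant-producing genes of the epithelium rose above normal and stayed under the vehicle level. Of 12 members of the antimicrobial and Reg list 6 rose and 1 fell, and 4 were lower with powder than with vehicle. Duox2, the dual oxidase that makes hydrogen peroxide at the cell surface, was at 3.26, 5.97 and 13.7 CPM in normal, 39.2, 76.6 and 397 CPM in powder and 128, 1133 and 2455 CPM in vehicle colon. It rose 16.6-fold over normal (log2 4.05 ± 0.58 SE, adjusted p = 2.75e-06), with no overlap, and stood 9.57-fold under vehicle (log2 -3.26 ± 0.55 SE, adjusted p = 0.000855). The highest powder value belonged to replicate 6. Duoxa2, its maturation factor, rose 16.6-fold and stood 14.9-fold under vehicle (log2 -3.89 ± 0.62 SE, adjusted p = 0.000525). Pla2g2a, a secreted phospholipase that kills bacteria, was at 1.30 to 2.90 CPM in 5 normal libraries and 29.6 CPM in normal replicate 3, against 103, 476 and 2061 CPM with powder (log2 6.13 ± 0.88 SE, adjusted p = 2.79e-06), and 4.45-fold under vehicle (adjusted p = 0.0431). Lcn2, which binds bacterial iron carriers, rose 5.36-fold, and Slpi, a secreted protease inhibitor, fell 6.78-fold. The Pla2g2a call against vehicle ended without any 1 of 9 libraries, up to adjusted p = 0.101 without oral vehicle replicate 6.

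The Reg3 lectins, which bind bacterial walls, varied widely among the powder libraries. Reg3g was at 1.03, 7.21 and 15.8 CPM in normal and 0.246, 96.7 and 685 CPM in powder colon and is called higher (log2 4.81 ± 1.30 SE, adjusted p = 0.00488). The groups overlapped, since powder replicates 4 and 5 held 1.37 and 0.246 CPM while replicate 6 held 685. Reg3b followed the same libraries, at 0.507, 0.688 and 585 CPM in replicates 4, 5 and 6, with normal colon at 0.380 to 10.2 (log2 5.42 ± 1.50 SE, adjusted p = 0.00584). Neither Reg3 gene was called against vehicle. Reg3b lost its call without powder replicate 6 (adjusted p = 0.0931). Reads of Reg3b and Reg3g, and of the Gsta, Ces2, Cyp2b and Clca families named below, may be shared between close copies, and how the counting treated them is not given in the sources used here.

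Inflammatory genes were partly raised. Of 18 measured cytokines and mediators 9 rose and 0 fell with powder (median 1.24), 15 rose with vehicle and 17 in untreated colon, and 7 were lower with powder than with vehicle (3 without powder replicate 4). Il1a, an alarm cytokine of epithelium, was at 0, 0.231 and 0.399 CPM in normal, 2.48, 5.14 and 18.4 CPM in powder and 6.47, 52.3 and 103 CPM in vehicle colon (log2 5.09 ± 0.82 SE, adjusted p = 1.65e-05; against vehicle log2 -2.74 ± 0.57, adjusted p = 0.00296). Tnf rose 4.78-fold and was 2.97-fold under vehicle (adjusted p = 0.0219). Lif, a cytokine of the interleukin 6 family, rose 2.25-fold with no overlap, 6.52 to 9.40 against 15.8 to 22.9 CPM, and was not called against vehicle (adjusted p = 0.0892). Il1rn, which blocks the interleukin 1 receptor, rose 3.75-fold, and Csf1, the macrophage growth factor, 2.77-fold. Il1b was at 0.363 to 2.11 CPM in normal and 0.575 to 2.04 CPM in powder colon and was not called (log2 -0.20 ± 0.57). Nfkbia, the feedback inhibitor of NF-kappa-B, was not called against normal (log2 0.26 ± 0.23) and 1.80-fold under vehicle (adjusted p = 0.0145). The calls of Tnf and Nfkbia against vehicle ended with single libraries left out (up to adjusted p = 0.0706 without powder replicate 4 and 0.0546 without oral vehicle replicate 6).

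Neutrophil-attracting chemokines were detectable in powder colon and hardly in normal colon, and several were lower than with vehicle. Of 22 members of the neutrophil list 12 passed the filter on low counts. Of these 12, 4 rose and 0 fell, against 9 that rose with vehicle, and 7 were under vehicle. Cxcl1, Cxcl3 and Cxcl6 had 2, 0 and 1 counts in normal colon and could not have been called lower, so the 0 is no result for them. The 4 became 2 without non-irradiated replicate 4, 1 with only the compared libraries in the fit and 7 with DESeq2, and the 7 under vehicle became 2 without oral vehicle replicate 5 and 4 without powder replicate 4. Cxcl1 had 2 counts in the 6 normal libraries and stood at 0.405, 0.715 and 2.83 CPM with powder and 0.924, 5.00 and 11.1 CPM with vehicle, a ratio of 54.8 for powder over normal (14.8 to 457; adjusted p = 1.7e-05; against vehicle log2 -2.32 ± 0.51, adjusted p = 0.00409). Cxcl6 had 1 count in normal colon and was at 0.101, 0.586 and 3.13 CPM with powder and 1.09, 8.13 and 201 CPM with vehicle, and it was not called against normal colon (adjusted p = 0.0802) but was against vehicle (log2 -5.03 ± 1.11 SE, adjusted p = 0.00446). Cxcl3 had 0 counts in normal colon and 75 with powder, at least 22.6-fold higher (against 3 counts over the group), and at least 812-fold higher with vehicle; it was not called against normal colon (adjusted p = 0.0826) and was under vehicle by log2 -4.94 ± 1.10 (adjusted p = 0.00522). The vehicle means of these genes rest in part on replicate 5, whose Cxcl6 value was 201 CPM with the other 5 libraries at 1.09 to 16.0. Without that library the differences from vehicle were not called for Cxcl6 (adjusted p = 0.0607) or Cxcl3 (adjusted p = 0.0538). S100a9, a calprotectin subunit of neutrophils and injured epithelium, rose 13.7-fold over normal and was 5.74-fold under vehicle (adjusted p = 0.00498). The Cxcl1 and Cxcl6 promoters are shown because both genes were lower with powder than with vehicle and both hold a match to the NF-kappa-B consensus, in capitals (both strands searched, 2 overlapping matches each). Of 15 genes of the neutrophil list with a RefSeq promoter 3 hold such a match, Cxcl1, Cxcl2 and Cxcl6, against 3.52% of all promoters.
Cxcl1 promoter, chr14:17479322-17479571, minus strand: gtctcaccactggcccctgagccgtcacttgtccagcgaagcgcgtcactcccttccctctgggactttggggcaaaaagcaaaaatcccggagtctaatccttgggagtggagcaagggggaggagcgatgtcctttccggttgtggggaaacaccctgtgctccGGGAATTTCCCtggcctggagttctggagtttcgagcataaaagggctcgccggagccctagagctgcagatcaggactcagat
Cxcl6 promoter, chr14:17596418-17596667, minus strand: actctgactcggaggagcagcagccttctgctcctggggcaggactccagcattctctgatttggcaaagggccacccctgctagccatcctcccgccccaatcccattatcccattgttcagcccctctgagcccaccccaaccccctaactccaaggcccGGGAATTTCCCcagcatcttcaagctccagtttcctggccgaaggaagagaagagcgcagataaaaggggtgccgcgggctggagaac

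Of 31 measured interferon response genes 11 rose and 4 fell (median 0.31; 17.3% and 13.6% over all genes), against 19 and 1 with vehicle, and 12 were lower with powder than with vehicle and 0 higher. The 4 became 2 without non-irradiated replicate 2, 4, 5 or 6 or powder replicate 4 or 6, and 1 and 0 in series 1 and 2 alone. The 12 became 7 without powder replicate 4. The chemokines Cxcl9, Cxcl10 and Cxcl11, which attract T cells, rose 20.0-fold, 24.3-fold and 7.79-fold, and Cxcl10 was at 3.26, 3.90 and 5.23 CPM in normal, 79.5, 104 and 110.3 CPM in powder and 21.3, 83.3 and 116 CPM in vehicle colon, and was not called against vehicle (log2 0.36 ± 0.36, 95% interval -0.37 to 1.09). The guanylate-binding proteins Gbp4 and Gbp5 rose 48.2-fold and 11.0-fold and were lower than with vehicle (log2 -1.54 ± 0.47 and -1.40 ± 0.32). The Gbp4 call against vehicle ended without any 1 of 6 libraries, up to adjusted p = 0.166 without oral vehicle replicate 5. Rsad2, the antiviral enzyme viperin, fell 5.03-fold under normal, from 12.5, 19.8 and 28.8 to 0.608, 2.58 and 13.1 CPM, while with vehicle it was at 9.40, 14.9 and 52.7 CPM (log2 0.09 ± 0.55 against normal; powder against vehicle -2.42 ± 0.59, adjusted p = 0.0083). Stat2, a signal transducer of interferon, fell 1.31-fold with no overlap. Irf1 and Irf7, transcription factors of the response, were not called (log2 0.06 ± 0.28 and 0.44 ± 0.20).

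**Figure D3:**
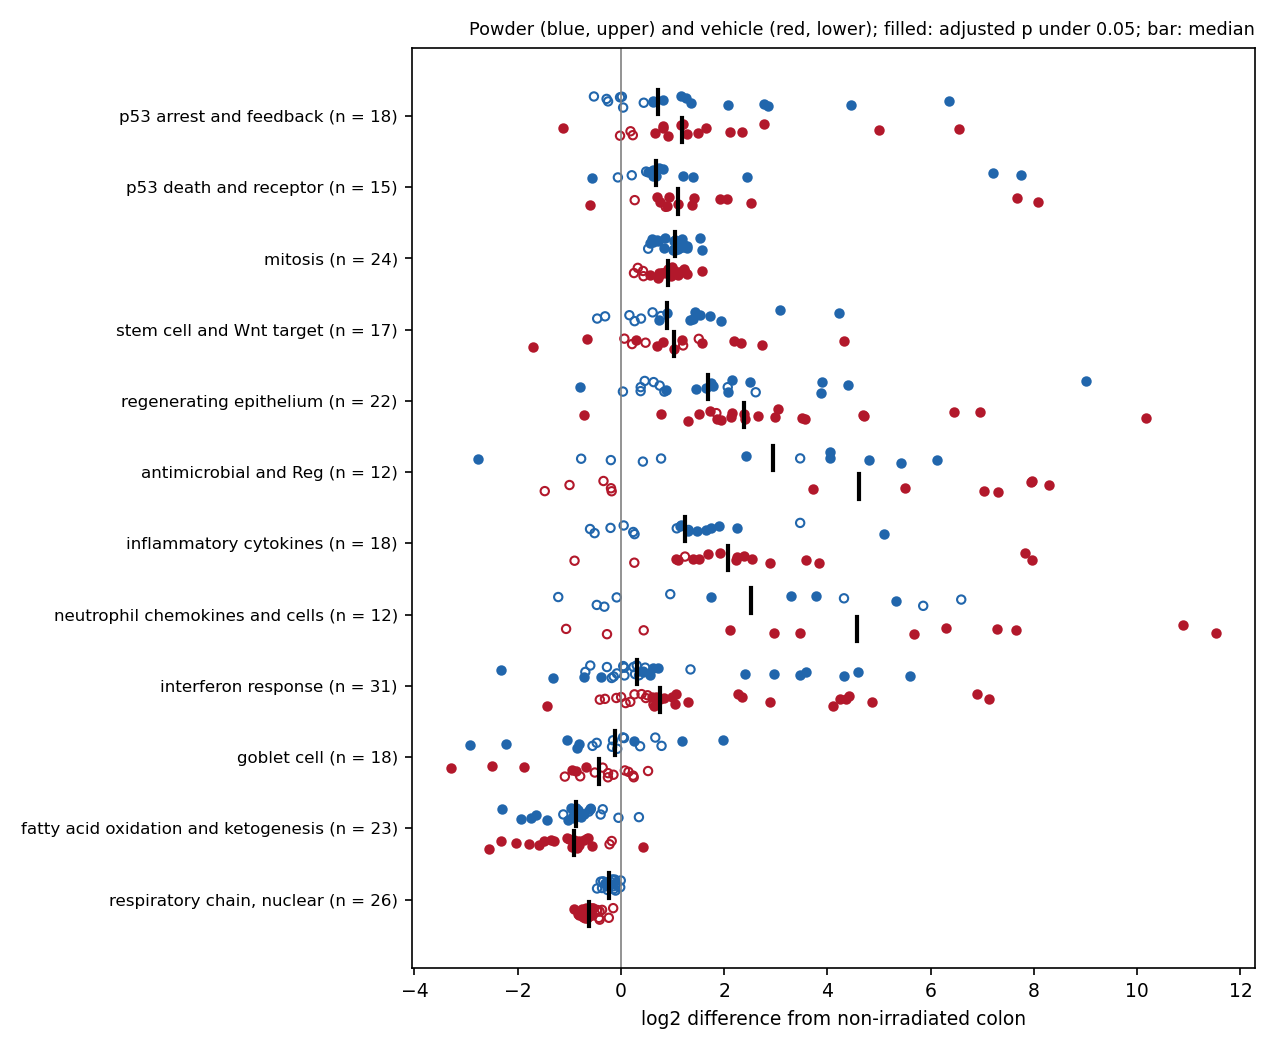
Log2 difference of every measured member of 12 gene lists in powder colon against normal colon (upper point row of each list) and in vehicle against normal colon (lower row), which share the normal libraries; filled points passed the test, open points did not, and short bars mark medians. The p53 and mitosis medians lie right of 0 in both rows, the inflammatory and neutrophil medians are smaller with powder than with vehicle, and the fatty acid oxidation medians lie left of 0 in both.

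Of 18 measured goblet cell genes 3 rose and 5 fell, where 17.3% and 13.6% of all genes did, and 6 were higher with powder than with vehicle and 0 lower. The 6 became 1 without oral vehicle replicate 5 or powder replicate 2, and 2 without oral vehicle replicate 3 or powder replicate 4. Spink4, a protease inhibitor of goblet cells, was at 21.8, 73.9 and 80.4 CPM in normal, 149, 230.4 and 369 CPM in powder and 51.5, 87.3 and 133 CPM in vehicle colon. It rose 3.93-fold over normal (log2 1.98 ± 0.33 SE, adjusted p = 2.38e-05), with every powder library above every normal one, and was 2.73-fold above vehicle (log2 1.45 ± 0.32 SE, adjusted p = 0.00454). Agr2, which folds mucins in the endoplasmic reticulum, rose 2.28-fold over normal (log2 1.19 ± 0.28 SE, adjusted p = 0.00157), with replicate 1 at 838 CPM inside the normal range, and was above vehicle (log2 0.94 ± 0.28 SE, adjusted p = 0.0256). With vehicle neither gene was called against normal colon (adjusted p = 0.165 and 0.468). The Agr2 call against vehicle ended without any 1 of 6 libraries, up to adjusted p = 0.0913 without oral vehicle replicate 5, and the Spink4 call held in each fit that left out 1 library. Muc2, the main gut mucin, whose counts stand under AABR07006030.1, was at 2176, 5164 and 7302 CPM in normal and 4401, 8251 and 15329 CPM in powder colon and was not called (log2 0.79 ± 0.33 SE, adjusted p = 0.0677). Creb3l1, a transcription factor of secretory cells, was not called against normal (log2 -0.07 ± 0.26) and above vehicle (adjusted p = 0.0397). That call ended without any 1 of 7 libraries, up to adjusted p = 0.139. Clca1, a metalloprotease of mucus, fell 7.56-fold from 296, 419 and 768 to 22.0, 46.8 and 135 CPM, with no overlap, and Itln1, a lectin, 4.69-fold. Zg16, a mucus lectin, Fcgbp, a mucus scaffold, and Tff3, a trefoil peptide, fell 2.06-fold, 1.81-fold and 1.77-fold, with overlapping groups; all 3 missed the test with vehicle (log2 -0.25, -0.14 and -0.25), and their difference from vehicle was not called either (adjusted p = 0.112, 0.0843 and 0.149). The falls of Fcgbp and Tff3 lost their calls without non-irradiated replicate 6 (adjusted p = 0.077) and without powder replicate 3 (adjusted p = 0.0516).

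Of 23 measured genes of colonocyte maturation 2 rose and 5 fell, and of 29 ion transport genes 3 rose and 5 fell, where 17.3% of all genes rose and 13.6% fell. With only the compared libraries in the fit 9 transport genes fell, and 1 gene of each list rose without powder replicate 5. Cdx1 and Cdx2, homeobox factors of the intestine, fell 1.83-fold and 1.50-fold, Cdx2 from 671, 696 and 763 to 368, 479.7 and 609 CPM, both with no overlap. Hnf4a, a factor of enterocyte maturation, fell 1.43-fold, and its paralogue Hnf4g rose 1.96-fold. Guca2a, the hormone guanylin, fell 2.12-fold, and Slc51a, part of the basolateral bile acid carrier, rose 2.17-fold. Guca2a lost its call without any 1 of 5 libraries, up to adjusted p = 0.0659, and Hnf4g without powder replicate 5 (adjusted p = 0.0546). Krt8, a keratin of simple epithelium, was not called (4568 to 6509 against 4756 to 6822 CPM, log2 0.02 ± 0.19).

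Among the transport genes Scnn1b and Scnn1g, subunits of the epithelial sodium channel, fell 3.21-fold and 10.7-fold, the second at no more than 1.22 CPM. Slc16a1, which takes up butyrate, fell 2.16-fold from 563, 657 and 746 to 175, 306 and 435 CPM, and Slc4a4, the sodium bicarbonate cotransporter, 2.81-fold; neither overlapped. Slc16a1 lost its call without powder replicate 4 or 6 (up to adjusted p = 0.0593). Car1, a carbonic anhydrase of colonocytes, was at 18304, 20112 and 22089 CPM in normal and 3936, 8037 and 13401 CPM in powder colon, and although no library overlapped it did not pass the test (log2 -1.45 ± 0.73 SE, adjusted p = 0.132). Slc26a3, the chloride exchanger, was not called (log2 -0.48 ± 0.66). Clca4, a chloride channel regulator, rose 13.1-fold from 35.0, 51.9 and 97.9 to 346, 499.8 and 2005 CPM, with vehicle at 1166, 5379 and 16818 CPM, 7.50-fold above powder (log2 -2.91 ± 0.54 SE, adjusted p = 0.0018). Of 19 tight junction and adhesion genes 1 rose and 0 fell: Cldn2, which forms cation pores, rose 2.73-fold (log2 1.45 ± 0.44 SE, adjusted p = 0.012). With vehicle 6 rose and 1 fell, and 4 were lower with powder than with vehicle (0 without oral vehicle replicate 5 and 0 without powder replicate 4), among them Cdh1, E-cadherin (log2 -0.44 ± 0.13, adjusted p = 0.0253). The Cdh1 call ended without any 1 of 3 libraries, up to adjusted p = 0.121 without oral vehicle replicate 5.

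Of 19 enteroendocrine genes 3 rose, where 17.3% of all genes did, and 0 fell: Gcg, the precursor of glucagon-like peptides, 3.55-fold from 41.5, 54.4 and 78.5 to 81.9, 200.2 and 385 CPM with no overlap, Pyy, peptide YY, 2.66-fold, and Cpe, the prohormone-processing carboxypeptidase E, 2.07-fold. The granule proteins Chga and Chgb were not called (log2 -0.32 ± 0.34 and -0.40 ± 0.33). Of 13 tuft cell genes 1 rose and 1 fell: Alox5, which starts leukotriene synthesis and is also a leukocyte gene, rose 5.04-fold, and Il13ra1, an interleukin 13 receptor chain, fell 1.63-fold. Squamous-type genes rose in 2 of 8 cases, Krt4, a keratin of stratified epithelium, at no more than 2.11 CPM and Serpinb5, a serpin, 1.64-fold. The calls of Cpe and Krt4 ended without powder replicate 6 (adjusted p = 0.0595) and without powder replicate 5 (adjusted p = 0.0535).

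Most measured genes of fatty acid oxidation fell. Of 23 members 16 fell and 0 rose (median -0.87), where 13.6% of all genes fell. The fall was not particular to powder: with vehicle 19 fell and 1 rose (median -0.91), and in untreated colon 18 fell and 0 rose (median -0.81). Over all genes 23.6% and 22.3% fell in these 2 groups. Between powder and vehicle 1 member was lower and 0 higher (median difference 0.02). In 18 of the 23 every powder library lay under every normal one, as in 8.8% of all genes. Hadhb, the thiolase subunit of the mitochondrial trifunctional protein, was at 468, 519.7 and 664 CPM in normal and 178, 277 and 319.8 CPM in powder colon, 2.03-fold lower (log2 -1.02 ± 0.17 SE, adjusted p = 2.24e-05). Eci1, an enoyl-CoA isomerase, fell 3.13-fold. Cpt1a, the carnitine acyltransferase that admits fatty acids to mitochondria, was at 443, 497 and 549 CPM in normal, 223, 292 and 327 CPM in powder and 277, 391 and 565 CPM in vehicle colon. It fell 1.78-fold with powder (log2 -0.83 ± 0.15 SE, adjusted p = 8.32e-05), was not called with vehicle (log2 -0.22 ± 0.15) and was lower with powder than with vehicle (log2 -0.61 ± 0.15 SE, adjusted p = 0.00927). The medians of the list were -0.59 in library series 1 and -1.10 in series 2, negative in both, and in series 1 alone 4 of the 23 were called lower. Nuclear genes of the respiratory chain were called in 0 of 26 cases with powder by edgeR (1 had an unadjusted p under 0.05, DESeq2 called 0, and with only the compared libraries in the fit 8 were lower), against 18 lower with vehicle and 19 lower in untreated colon, but 0 of the 26 were called between powder and vehicle (9 had an unadjusted p under 0.05, median difference 0.38; 5 were called higher without oral vehicle replicate 2). The summed level of the list ran from 15520.0 to 16890.0 CPM in normal, 10610.0 to 16630.0 in powder and 7199 to 13980.0 in vehicle colon, and the share of mitochondrially encoded counts was lower in both irradiated groups as well.

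Of 27 xenobiotic enzymes 4 rose and 8 fell, where 17.3% of all genes rose and 13.6% fell. Among them were Cyp2j4, an arachidonic acid epoxygenase (2.89-fold lower), and the glutathione transferases Gstm2 and Gsta4 (2.42-fold and 2.08-fold lower) and Gsta1 (8.63-fold higher). Others were the carboxylesterase Ces2c (4.53-fold higher) and Aldh1a7, an aldehyde dehydrogenase (4.96-fold lower). Of 18 targets of NRF2, the factor of the antioxidant response, 2 rose and 1 fell with powder, and 8 rose and 3 fell with vehicle. Over all genes 26% rose and 23.6% fell with vehicle. Of the NRF2 targets 5 were lower with powder than with vehicle (2 without oral vehicle replicate 5 and 3 without powder replicate 4). The 2 that rose became 1 without non-irradiated replicate 3 or 4 or powder replicate 4 or 6. Gpx2, the glutathione peroxidase of gut epithelium, was at 79.3, 119.7 and 244 CPM in normal, 525, 1213 and 2086 CPM in powder and 1325, 3513 and 5299.5 CPM in vehicle colon, 8.36-fold above normal and 2.83-fold under vehicle (adjusted p = 3.54e-08 and 0.0035). Ephx1, an epoxide hydrolase, fell 1.53-fold. Cholesterol synthesis fell in 1 of 23 genes, Srebf2, the master regulator (1.30-fold), and rose in 0. The Srebf2 call ended without any 1 of 7 libraries, up to adjusted p = 0.0879. Of 17 clock genes Cry2, a repressor, fell 1.80-fold, and it was above its vehicle level (adjusted p = 0.0393); with vehicle 6 clock genes fell and 1 rose. The count with powder was 2 without non-irradiated replicate 1, 2 or 3 or powder replicate 1. The Cry2 difference from vehicle lost its call without any 1 of 8 libraries, up to adjusted p = 0.099. The time of day of sampling is not given. Of 11 glucocorticoid response genes 3 fell, Fkbp5, a co-chaperone of the receptor, 2.19-fold from 154, 194 and 252 to 54.6, 89.0 and 125 CPM.

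Celf3, an RNA-binding protein of neuronal and endocrine cells, fell under powder and lay below both other irradiated groups. It was at 19.8, 71.8 and 134 CPM in normal, 4.56, 7.47 and 20.5 CPM in powder and 36.6, 55.4 and 135 CPM in vehicle colon. Powder was 7.66-fold under normal (log2 -2.94 ± 0.48 SE, adjusted p = 2.3e-05) and 6.59-fold under vehicle (log2 -2.72 ± 0.48 SE, adjusted p = 0.00135), and neither vehicle nor untreated colon was called against normal (log2 -0.22 ± 0.45 and -0.77 ± 0.45). The highest powder library, replicate 5 at 20.5 CPM, just passed the lowest normal one, replicate 1 at 19.8. Within series 1 the log2 difference from normal was -3.24 and within series 2 -2.82.

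Most measured mast cell genes fell, and several were almost absent with powder. Of 7 measured members 5 fell and 0 rose. The summed level of the list had a median of 27.3 CPM in normal and 14.6 CPM in powder colon. Cpa3, the mast cell carboxypeptidase, was at 2.14, 2.75 and 5.65 CPM in normal colon and had 0 counts in all 6 powder libraries, at least 123-fold lower (against 3 counts over the group). Fcer1a, the binding chain of the IgE receptor, also had 0 counts with powder, at least 49.0-fold lower, and Ms4a2, its signalling chain, had 1 count against 388, a ratio of 429 (76.5 to 17000). The falls were 31.3-fold for Hdc, the enzyme of histamine synthesis, and 24.4-fold for Gata2, a transcription factor of the lineage. With vehicle Cpa3 had 2 counts and Ms4a2 and Fcer1a 0. Kit, a receptor of mast cells and of pacemaker cells of the gut wall, was not called with powder (log2 -0.11 ± 0.29) and fell with vehicle (log2 -1.02 ± 0.30 SE, adjusted p = 0.00513); the difference between powder and vehicle passed the test (log2 0.91 ± 0.30 SE, adjusted p = 0.0407). It did not pass without any 1 of 7 libraries, up to adjusted p = 0.139 without oral vehicle replicate 5.

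Lymphocyte genes were low, and lower with powder than in normal colon, as in the other irradiated groups. Of 14 B and plasma cell genes 8 fell and 0 rose, against 12 and 2 with vehicle and 7 and 2 in untreated colon. Of 14 T cell genes 5 fell and 1 rose, against 4 and 1 with vehicle and 3 and 1 in untreated colon. Between powder and vehicle 1 B and plasma cell gene was higher and 1 lower, and 0 T cell genes were called. The B cell genes Cd22, Ms4a1, Cd79a, Cd79b and Cr2 were at no more than 0.547 CPM in every powder library and ran widely in normal colon, Cd79a from 0.363 CPM in replicate 6 to 14.7 in replicate 3, which was also the highest in Ptprc (23.3 CPM). Without normal replicate 3 7 of the 14 fell and 1 rose, and with only the compared libraries in the fit 1 B and plasma cell gene fell. Cd6, a surface receptor of T cells, fell 20.7-fold from 1.63, 3.61 and 3.93 to 0.0563, 0.151 and 0.230 CPM, with no overlap, and Ccl5, a chemokine of cytotoxic T cells, 2.81-fold. Cd3g, part of the CD3 signalling unit, rose 2.51-fold. Of 10 class II genes 2 fell with vehicle and 0 in untreated colon, and 0 were called between powder and vehicle. With powder 3 fell and 0 rose: RT1-DOb (4.09-fold), Ciita, the class II regulator (2.60-fold), and RT1-DMa (1.41-fold). Single libraries decided these calls: RT1-DOb without non-irradiated replicate 3 (adjusted p = 0.106), Ciita without non-irradiated replicate 3 (adjusted p = 0.179) and RT1-DMa without non-irradiated replicate 4 (adjusted p = 0.0645) were not called, and neither was Cd3g without powder replicate 5 (adjusted p = 0.109). Of 20 macrophage genes 3 rose, where 17.3% of all genes did, and 0 fell, Mrc1, the mannose receptor (3.73-fold), the Fc receptor Fcgr1a (5.06-fold) and Cd14 (1.69-fold), against 9 with vehicle and 12 in untreated colon.

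Several genes of the tissue under the epithelium were called higher, with the highest Acta2 and Col6a2 values in 2 libraries. Of 24 fibroblast and matrix genes 13 rose and 0 fell, of 13 smooth muscle genes 7 rose and 1 fell, of 14 endothelial genes 4 rose and of 9 genes of the enteric nervous system 0 were called (0 also with DESeq2, and 0 at an unadjusted p under 0.05 by edgeR). Of 16 matrix protease genes, a list that also holds the epithelial Mmp7, 7 rose. Acta2, smooth muscle actin, was at 17.5 and 35.2 CPM in powder replicates 4 and 6, at 0.423 to 3.42 CPM in normal colon and at 1.72 to 5.18 CPM in the other 4 powder libraries. Col6a2, a collagen chain, showed the same libraries, at 20.5 and 33.3 CPM against 3.94 to 6.78 CPM in the others, all above normal colon (0.721 to 3.19 CPM; log2 2.86 ± 0.73 SE, adjusted p = 0.00296). The 13 fibroblast genes became 8 without non-irradiated replicate 4 and 6 without powder replicate 6, the 4 endothelial genes 1 without powder replicate 6, and the 7 smooth muscle genes 3 without any 1 of non-irradiated replicates 1, 2, 4, 5 and 6 and powder replicate 4, and 2 without powder replicate 6. The 1 smooth muscle gene that fell was not called without any 1 of 9 libraries. Without powder replicates 4 and 6, an alternative chosen after the data were seen, 1 of the fibroblast genes, 0 of the smooth muscle genes and 1 of the endothelial genes were called higher. Of the matrix protease genes 5 of the 17 tested in that fit were called higher. Timp1, an inhibitor of metalloproteinases made by many cells, rose 4.82-fold from 15.5, 18.3 and 24.2 to 62.3, 93.0 and 146 CPM with no overlap and was 1.92-fold under vehicle (adjusted p = 0.0388). That difference from vehicle lost its call without any 1 of 7 libraries, up to adjusted p = 0.157. Mmp14, a membrane-bound metalloproteinase, rose 2.55-fold. Plat, tissue plasminogen activator, was at 89.4 and 168 CPM in normal replicates 2 and 6 and at most 2.03 CPM in the other 4, against 7.82, 19.0 and 70.2 CPM with powder; it was not called (log2 -0.50 ± 0.93), but was 16.3-fold under vehicle (log2 -4.03 ± 1.04 SE, adjusted p = 0.0119), and Plaur, the urokinase receptor, was not called against normal and was under vehicle (log2 0.04 ± 0.42 and -1.69 ± 0.43). Both differences from vehicle lost their calls without vehicle replicate 5 (adjusted p = 0.0921 and 0.0836).

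Genes of neighbouring organs are set beside the 30.9% of all genes that were called. Of 6 gastric genes 1 fell, Gkn3, and 0 rose. Of 14 small intestinal enterocyte genes 2 rose and 3 fell, Fabp1, Fabp6, the bile acid binding protein, and Rbp2, a retinol binding protein, among the fallen. Of 2 pancreatic genes measured Cel fell, at no more than 0.977 CPM. Slc10a2, the ileal bile acid transporter, rose 7.40-fold, from 1.74, 3.24 and 7.17 to 0.541, 36.1 and 49.1 CPM, in all powder libraries but replicate 5 at 0.541 CPM. Its call ended without powder replicate 6 (adjusted p = 0.067).

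Genes of ribosome biogenesis and of cell stress were also called higher. Of 19 ribosome biogenesis genes 15 rose and 1 fell, for instance Rrn3, an initiation factor of RNA polymerase I (1.83-fold), and Wdr12 (2.04-fold), while Ubtf, a factor of the same polymerase, fell 1.16-fold. Of 17 genes of endoplasmic reticulum and integrated stress 9 rose and 0 fell, among them Asns, asparagine synthetase (3.11-fold), Sesn2, a stress sensor that p53 also induces (1.54-fold), and Chac1, a glutathione-degrading enzyme (5.39-fold). Of 17 immediate early genes 8 rose and 0 fell, led by Egr2 (9.29-fold), Nr4a1 (4.09-fold) and Egr1 (3.46-fold), which respond to growth factors, whereas Jund was not called (log2 -0.01 ± 0.11). Of 12 heat shock genes 6 rose and 0 fell (3 rose without non-irradiated replicate 4, 2 without powder replicate 5, 2 with the mitochondrial share as a covariate and 0 in series 1 alone), the mitochondrial chaperone Hspd1 1.62-fold, and Dnajb1, a co-chaperone, was not called with powder (log2 0.12 ± 0.36) and under vehicle (log2 -1.23 ± 0.36, adjusted p = 0.0253). The last call ended without any 1 of 4 libraries, up to adjusted p = 0.074 without oral vehicle replicate 5. Within series the ribosome biogenesis list had medians of 0.35 in library series 1 and 1.14 in series 2, with 1 and 17 members called higher.

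Compared directly with vehicle, powder colon differed in 1568 genes (11.8%), 650 higher (4.89%) and 918 lower (6.9%), of which 407 by at least 2-fold (3.06%), 90 higher (0.676%) and 317 lower (2.38%). The 5 highest by the naming rule were Colec10, a collectin, Wfdc1, a secreted protein with a whey acidic domain, Ccn3, a matricellular protein, A4gnt, a glycosyltransferase of mucins, and Ros1, a receptor tyrosine kinase, at log2 2.79, 2.25, 1.97, 1.92 and 1.80. All 5 were lower with vehicle than in normal colon, and with powder 0 of the 5 were called against normal. Ros1 was at 5.29, 11.1 and 14.9 CPM in normal, 6.85, 15.6 and 21.7 CPM in powder and 1.58, 4.55 and 7.17 CPM in vehicle colon (log2 1.80 ± 0.37 SE, adjusted p = 0.00299). Ccn3 was at 63.9, 115 and 122 CPM in normal, 10.1, 33.4 and 118 CPM in powder and 4.07, 8.89 and 17.9 CPM in vehicle colon (log2 1.97 ± 0.54 SE, adjusted p = 0.0168). In Ros1 the powder libraries lay within the normal range or above it, and in Ccn3 5 of 6 lay below all normal ones, replicate 5 being the exception at 118 CPM. Colec10 was at 0.590 CPM in powder replicate 5 and at 31.6 to 358 CPM in the other 5, against 109 to 292 CPM in normal colon.

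The 5 lowest were Cyp24a1, the vitamin D hydroxylase, Cxcl6, Cxcl3, Fer1l4 and Tgm1, a transglutaminase of barrier epithelium, at log2 -6.55, -5.03, -4.94, -4.94 and -4.91. Single vehicle libraries were high in Cyp24a1 and Tgm1. Cyp24a1 was at 212 CPM in vehicle replicate 6 and 34.6 in replicate 3, and at no more than 2.20 in the other 4. Tgm1 was at 1.66, 5.52 and 544 CPM with vehicle, with the highest value in replicate 5, at 1.18, 2.31 and 4.62 CPM with powder and at 0.0543, 0.113 and 0.301 CPM in normal colon, where all powder libraries lay above all normal ones. Without vehicle replicate 5 the count against vehicle fell from 1568 to 520 genes, and without vehicle replicate 2 it was 2474, so the count moves with the vehicle libraries in the group. It was 941 without vehicle replicate 1, 979 without vehicle replicate 6, 982 without powder replicate 2 and 633 without powder replicate 4. Of 35 list counts above 0 against vehicle 31 moved by over 1.5 times with some single library left out. Of 44 genes called against vehicle and named here, 15 kept the call in each fit that left out 1 library, and 29 lost it in at least 1. Of the 10 genes named here as highest and lowest, A4gnt and Ros1 kept it in all, and Tgm1 went furthest, to adjusted p = 0.469 without oral vehicle replicate 5. Within library series 1 alone 3 genes were called against vehicle (0.0225%) and within series 2 alone 25 (0.186%), with 3 libraries a group.

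**Figure D4:**
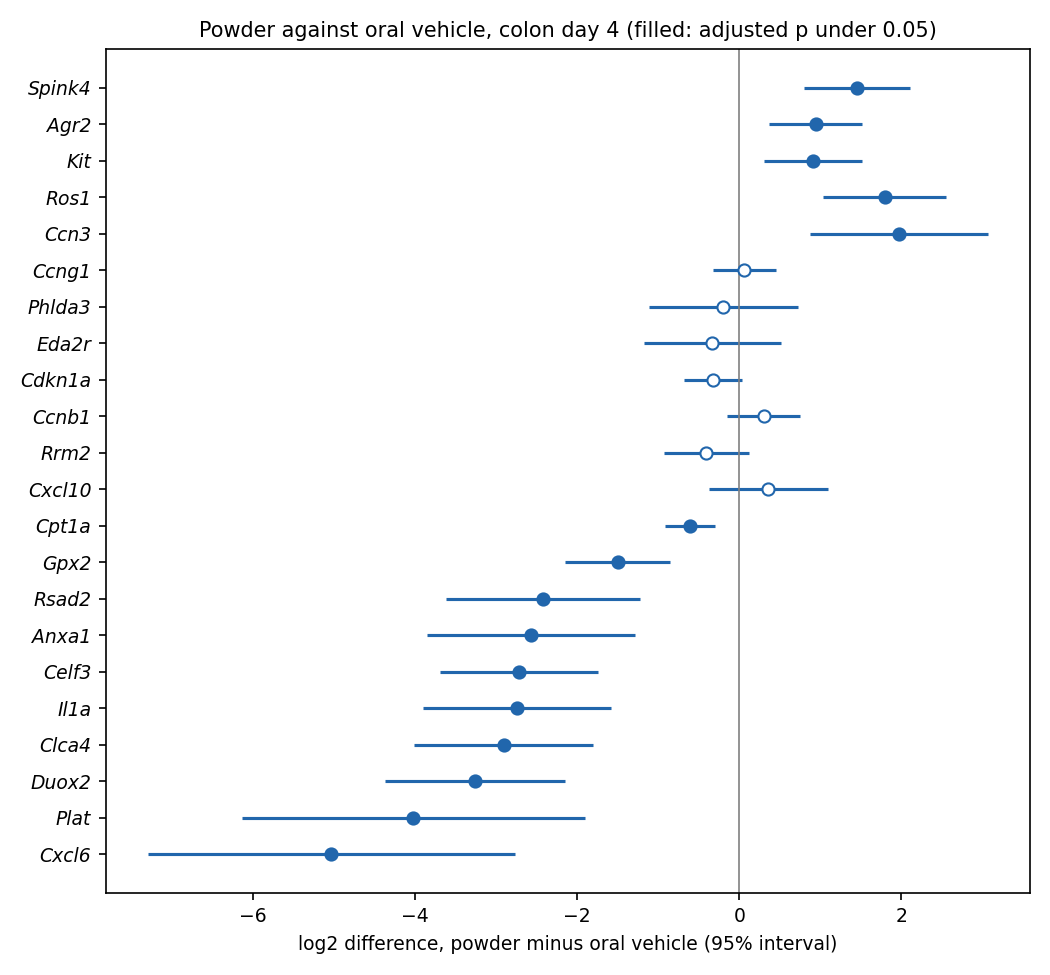
Log2 difference of powder from oral vehicle colon for 22 named genes, with 95% intervals from the standard error of the fit, 6 libraries per group; filled points passed the test. The intervals of the 4 p53 genes, Ccnb1, Rrm2 and Cxcl10 include 0, Spink4, Agr2 and Kit lie above 0, and the oxidase, chemokine, Clca4 and Celf3 intervals lie below 0.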

How the data were processed

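Bulk RNA libraries of rat colon epithelium were sequenced paired-end at 150 bases, per the labels' protocols. The authors deposited raw counts per gene symbol, 1 column per library, and the submitters' processing notes name STAR 2.7.10a and the build mRatBN7.2. The counter, annotation, strand setting, treatment of reads shared by close gene copies and filters are unstated there (not given in the sources used here). Columns were matched to samples by library name.

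The 42 colon libraries of the 7 groups given powder, oral vehicle or no treatment and of the non-irradiated group, day 7 included, were fitted together with edgeR 4.0.16 (R 4.3.3), with TMM factors, filterByExpr, 1 coefficient per group and library series as covariate. The quasi-likelihood F test gave p-values, adjusted by Benjamini-Hochberg over 13306 of 21837 genes, and genes under 0.05 are called. Standard errors are the log2 difference divided by the square root of F, and CPM values use TMM-scaled library sizes. Genes with 3 counts or fewer in a group are given as ratios of summed counts with exact 95% intervals or as bounds against 3 counts over the group, which cover counting error only. Named genes are the 12 highest and 12 lowest called genes with at least 5 CPM on average, per list up to 5 called members in the main direction, 2 in the other and 2 not called, the 5 highest and 5 lowest against vehicle, and a fixed panel. Ptprc was added as a marker, and a few genes that the rule names are not reported here. The members, the lists and the panel were chosen with earlier results of these data known. Alternatives used DESeq2 1.42.0, other factors, filters, covariates and subsets of the libraries. On simulated counts for the powder contrast with 200 changed genes among 12652, the test recovered 43.3% at 1.5-fold, 82.1% at 2-fold and 97.0% at 4-fold, with 6 false calls. The changed genes had about 1 CPM or more in normal colon. All other values had the normal mean, and no series effect was simulated. The recovery therefore does not cover rarer genes or a contrast with as many changed genes as the real one. Promoter sequences are RefSeq, build GRCr8. The table of the injected groups was not used.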

Additional observations from a re-analysis of the deposited data

Results flagged for a closer look

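Among 187 named genes in the non-irradiated and the powder group, 45 of 374 pairs of gene and group (12.0%) held 1 library that stood apart from the other 5 by Dixon's criterion. About 1 in 20 is the rate of this criterion for normally distributed values. Here it was applied to CPM without a log transformation, and all flags were on the high side. Some flags rest on 1 count, such as Ms4a2 with powder and Cxcl6 in normal colon. That rate is therefore no reference for the 12.0%, and genes of 1 library are not independent.

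Powder replicate 6 stood high, mostly in inflammatory and antimicrobial genes, for Cd22 (0.497 CPM, the others 0 to 0.113), Cxcl1 (2.83 CPM, the others 0.405 to 1.15), Cxcl2 (0.398 CPM, the others 0 to 0.115) and Cxcl3 (2.44 CPM, the others 0.115 to 0.561). It was also high for Cxcl6 (3.13 CPM, the others 0.101 to 0.969), Duox2 (397 CPM, the others 39.2 to 147), Duoxa2 (54.0 CPM, the others 4.78 to 14.3) and Fcgr1a (2.48 CPM, the others 0.507 to 1.04). Further values apart were those of Gata2 (0.398 CPM, the others 0 to 0.113), Mdm2 (151 CPM, the others 128 to 136), Ms4a1 (0.248 CPM, the others 0.0491 to 0.0575) and Ms4a2 (0.0497 CPM, the others 0 to 0). To these add Plaur (138 CPM, the others 53.8 to 63.7), Reg3b (585 CPM, the others 0.507 to 92.5), S100a9 (21.8 CPM, the others 2.53 to 5.41) and Tnf (5.02 CPM, the others 0.541 to 1.41).

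Powder replicate 5, which also lay apart on the second principal component, stood high for Alox5 (39.5 CPM, the others 9.78 to 18.0), Atp12a (408 CPM, the others 0.113 to 18.8), Axin2 (82.1 CPM, the others 32.7 to 41.6) and Ccn3 (118 CPM, the others 10.1 to 40.1). It was also high for Cldn4 (727 CPM, the others 325 to 465), Eda2r (21.6 CPM, the others 7.25 to 12.6), Hnf4g (81.6 CPM, the others 29.6 to 39.5) and Krt4 (2.11 CPM, the others 0.101 to 0.408). Further values apart were those of Nkd1 (22.9 CPM, the others 4.61 to 11.2), Pyy (110.1 CPM, the others 15.8 to 49.9), Rsad2 (13.1 CPM, the others 0.608 to 3.11) and Ubtf (168 CPM, the others 124 to 139).

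Non-irradiated replicate 3 stood high, mostly in leukocyte genes, for Cd22 (8.83 CPM, the others 0.665 to 2.65), Cd79a (14.7 CPM, the others 0.363 to 4.15), Cd79b (12.2 CPM, the others 0.0543 to 2.95) and Ciita (9.79 CPM, the others 0.786 to 3.89). To these add Cr2 (11.3 CPM, the others 0.109 to 1.86), Cxcl6 (0.0569 CPM, the others 0 to 0), Cxcl9 (1.59 CPM, the others 0.302 to 0.696) and Ms4a1 (7.40 CPM, the others 0 to 1.80). It was also high for Pla2g2a (29.6 CPM, the others 1.30 to 2.90), Ptprc (23.3 CPM, the others 4.78 to 9.80), RT1-DOb (7.29 CPM, the others 0.181 to 1.97) and Reg3b (10.2 CPM, the others 0.380 to 1.80).

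In non-irradiated replicate 1 the value apart was that of Scnn1g (1.22 CPM, the others 0.481 to 0.706). In non-irradiated replicate 2 the value apart was that of Cacna1h (147 CPM, the others 92.2 to 98.1). In non-irradiated replicate 6 the value apart was that of Cyp24a1 (2.24 CPM, the others 0 to 0.169). In powder replicate 3 the values apart were those of Colec10 (358 CPM, the others 0.590 to 121) and Cyp2b1 (8.61 CPM, the others 0.253 to 3.26). The difference of powder from non-irradiated colon in Prim1 varied between the library series by 1.57 on the log2 scale (adjusted p = 0.0307, edgeR), from -0.67 in series 1 to 0.93 in series 2.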

How the results depend on the processing

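Against normal colon 4106 genes were called with powder. DESeq2 called 4541 with powder and 6893 with vehicle. With only the compared libraries in each fit 5226 were called with powder, 6225 with vehicle and 6030 in untreated colon. Series 1 alone gave 972 (553 higher, 419 lower, 492 at least 2-fold), the mitochondrial share as a covariate 2620 (1043 lower), and leaving out powder replicates 4 and 6, chosen after seeing the data, 2570 (1027 lower). With 1 library left out it was 3229 to 4213, with 1813 to 2353 higher, 1416 to 1860 lower and 1165 to 1526 at least 2-fold. The vehicle count of 6587 became 3272 in series 1 and 3562 with the mitochondrial covariate, and 5725 to 6754 with 1 library left out, and the untreated count of 6242 became 2115 in series 1 and 5224 to 6238.

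The 1568 genes called between powder and vehicle moved most. With only the compared libraries they were 958 (343 higher, 271 at least 2-fold), without a filter 411 were higher, series 1 alone gave 3 (0 higher, 3 lower, 3 at least 2-fold) and series 2 alone 25 (9 higher, 16 lower, 19 at least 2-fold). The mitochondrial covariate gave 914 (375 higher, 539 lower, 242 at least 2-fold), and leaving out powder replicates 4 and 6 gave 396 (143 higher, 253 lower, 173 at least 2-fold). With 1 library left out the count was 520 to 2474, with 159 to 1195 higher, 361 to 1279 lower and 165 to 667 at least 2-fold. The series subsets hold 3 libraries a group; for the other settings the cause was not tested.

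Among named genes called with all libraries or in the alternative, direction turned for Prim1 in series 1 (log2 -0.67 with powder and -0.38 with vehicle, against normal), Chac1 between powder and vehicle in series 1 (0.0299), Cd14 with vehicle in series 2 (-0.0596) and Plat with powder without non-irradiated replicates 2, 3 and 6 (4.60, chosen after seeing the data). With the replicate number as a block 4072 genes were called against normal colon and 1500 against vehicle; deviations of same-numbered libraries correlated at -0.31 to 0.06 between powder and normal and -0.28 to 0.41 between powder and vehicle, not all above 0.1, so the numbers are not taken to pair the samples. In 1 of these 12 pairs, with vehicle, the powder library correlated best with its own number. Of the list counts above 0, 17 of 54 against normal colon and 31 of 35 against vehicle moved by over 1.5 times with some single library left out, and 50 and 35 in at least 1 other setting, the library series alone included.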
